A study of Homo sapiens with 4 samples.

Results

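The genes described here were listed as different after FOSL1 siRNA in FaDu cells and were not listed in SCC1 cells. They are the 571 of 1545 genes in the authors' FaDu table whose symbol was absent from the SCC1 table of 1903 genes and whose higher value in the 2 FaDu libraries was 5 CPM or more. CPM are reads scaled to the size of the library. Such a minimum can admit a gene through the library where it is higher alone, so a gene with few reads in the other library enters by its difference. Without that minimum there were 867 such genes, of which 296 lay under it, and the other 678 FaDu genes were listed in both lines. FaDu is an established cell line derived from a hypopharyngeal squamous carcinoma, SCC1 is another head and neck squamous carcinoma line, and both were grown in medium with serum. Cells of each line received control siRNA or FOSL1 siRNA for 48 h, and 1 library of total RNA was sequenced for each of the 4 groups. How many siRNAs were used, and their sequences, is not given in the sources used here, so effects of an siRNA other than on FOSL1 cannot be told apart from those of its target. Absence from the SCC1 table does not show that a gene was unaltered there, since each table holds only genes that passed the authors' own comparison, and the difference between the lines was not tested.

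FOSL1 encodes FRA1, a FOS family protein that pairs with a JUN protein to form the transcription factor AP-1. AP-1 binds short palindromic sites in promoters and enhancers and is activated by growth factor signalling through the ERK pathway. In squamous epithelium AP-1 subunits take part in the control of proteases and adhesion genes and of the programme by which basal keratinocytes mature into the upper layers, and FRA1 is abundant in many carcinomas.

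FOSL1 itself had 774 CPM in the FaDu control library and 36.9 CPM in the library with FOSL1 siRNA, which is 8881 against 383 reads and 20.9-fold lower (18.9 to 23.3). The value in parentheses after each fold is a 95% exact binomial interval. It covers counting error only and takes each read as its own molecule, which PCR copies are not. With 1 library per group the differences have no replicate check, so a gene is called higher or lower here from its CPM ratio alone, with no test. The effective library sizes were 11477600 reads for the control and 10365774 reads for FOSL1 siRNA, and the 571 genes held 3.01% and 2.71% of these. None of the 6 squamous epithelial markers looked up (KRT5, KRT14, TP63, KRT6A, CDH1 and EPCAM) was among the listed genes, and neither was any of 5 endothelial markers, so their levels were not analysed here. Of 11 fibroblast markers, COL3A1 and POSTN were listed, and of 10 leukocyte markers CD14, at 2.61 against 6.66 CPM, and 1 gene that SCC1 also lists.

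Of the 571 genes, 258 (45.2%) were higher after FOSL1 siRNA and 313 (54.8%) were lower. The authors' listing chose these genes, so the counts describe the list: 11.2% of the 13796 genes that they tested in FaDu were listed, 4.76% as higher and 6.44% as lower. Among all 1133 listed FaDu genes at 5 CPM or more, 39.6% were higher, and among the 562 of these that SCC1 also lists, 34.0% were higher. Setting the median log2 ratio of all listed FaDu genes, -1.01, to 0 would turn the sign of 68 lower genes and put 1 at 0, which leaves 326 higher (57.1%) and 244 lower. At the limit of 1.5-fold, which all 571 genes met before the shift, 258 higher and 64 lower genes would remain, 80.1% higher. The table holds no small differences, so by construction that shift could remove only lower genes.

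The median fold of the higher genes was 2.41 (quartiles 2.12 and 3.0) and that of the lower genes was 2.27 (quartiles 2.04 and 2.80). For the genes that both lines list, these medians were 2.54 and 2.54. Differences of 4-fold or more were seen for 33 higher genes and 30 lower genes, 5.78% and 5.25% of the 571. The shares were 6.09% and 7.77% of all listed FaDu genes at this level, and 6.41% and 10.3% of those that both lines list. The authors' deposited table gave an FDR under 0.05 to 107 of the 571 genes (18.7%), 56 of them higher and 51 lower, beside 2.85% of all tested genes, 26.6% of all listed FaDu genes at this level and 34.5% of those that both lines list. Most of the genes were therefore not called at that FDR, and the authors' comparison is one of 2 libraries, not of the conditions. The deposited p-values match those of edgeR with the dispersion, the variation assumed between replicates, set to 0.05. With 0.1 assumed instead, 21 of the 571 genes had an FDR under 0.05.

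**Figure D1:**
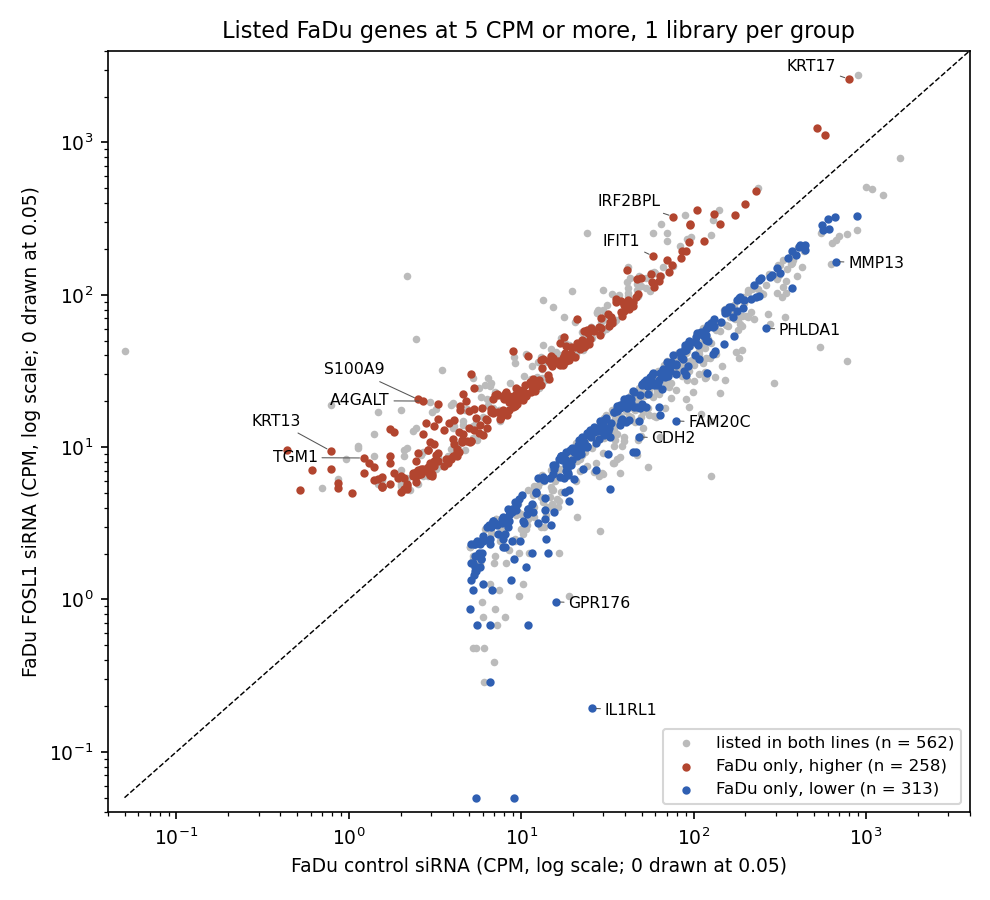
CPM in the FaDu library with FOSL1 siRNA (y axis, log scale) against CPM in the control library (x axis, log scale) for listed genes at 5 CPM or more; each point is 1 gene, red and blue mark the 258 higher and 313 lower genes that SCC1 does not list, grey marks the 562 genes that both lines list, and values of 0 are drawn at 0.05. No point lies near the dashed line of equal values, because the authors' table holds no small differences.

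The direction varied with the number of reads that a gene had. The share of higher genes was 51.1% of the 133 genes whose higher value lay between 5 and 10 CPM, 49.5% of 107 between 10 and 20 CPM, 49.3% of 152 between 20 and 50 CPM, 38.1% of 84 between 50 and 100 CPM and 31.6% of 95 at 100 CPM or more. The genes that both lines list went from 41.4% to 26.4% over the same steps and stood below the FaDu-only genes in each one. The median fold of the lower genes went from 2.80 in the first step to 2.10 in the last, and that of the higher genes from 2.75 to 2.21. A gene with few reads needs a larger fold to be listed, and CPM is not corrected for transcript length, so these steps order genes by their reads and not by their abundance.

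**Figure D2:**
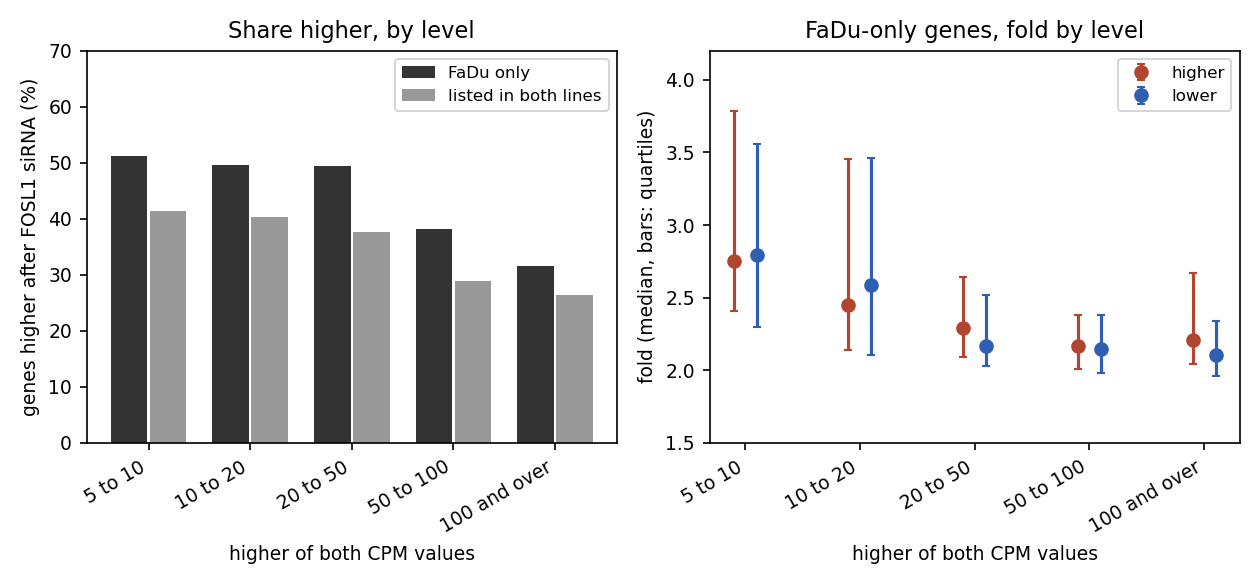
Left, the percentage of genes that were higher after FOSL1 siRNA, by the higher of both CPM values, for FaDu-only genes (dark) and genes listed in both lines (grey); right, the median fold of the FaDu-only genes in each step, with bars for the quartiles. The dark bars go from 51.1% to 31.6% and the grey bars from 41.4% to 26.4%.

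By gene type 541 of the 571 (94.7%) are protein coding in the RefSeq annotation, 11 are long noncoding RNAs, 10 are pseudogenes, 3 are small RNAs and 6 had no match. The rows with no reads after FOSL1 siRNA were both readthrough models that join neighbouring genes: PHOSPHO2-KLHL23 had 9.06 CPM in the control and was at least 31.3-fold lower, and INO80B-WBP1 had 5.49 CPM and was at least 19-fold lower, both computed at a floor of 3 reads per library. The largest ratio among the higher rows, 21.9-fold (9.09 to 69.0), also belonged to a readthrough model, C15orf38-AP3S2. How reads were divided between such models and their single genes is not stated, so these values are uncertain.

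Receptors and signalling enzymes were among the genes with the largest lower values. IL1RL1, which encodes ST2, the receptor for interleukin-33, had 25.8 CPM in the control and 0.193 CPM after FOSL1 siRNA, or 296 reads against 2. This was the largest fold of all 571 genes with reads in both libraries, 134-fold lower (36.7 to 1109). GPR176, an orphan G protein-coupled receptor gene, went from 15.9 to 0.965 CPM, and TMEM200A, a transmembrane protein gene, from 11 to 0.675 CPM. Both were over 16-fold lower, with intervals of 8.74 to 34.9 and 7.66 to 41.3. SPHK1, the kinase that makes sphingosine 1-phosphate, had 32.8 against 5.31 CPM and was 6.19-fold lower (4.66 to 8.37). HRH1, the histamine H1 receptor gene, had 18.8 against 4.44 CPM and was 4.24-fold lower (3.07 to 5.96). A row whose symbol the deposited table holds as a date is, by its deposited name, the membrane ubiquitin ligase gene MARCH4. It had 6.62 CPM in the control and 0.289 CPM after FOSL1 siRNA, 76 against 3 reads, and was 22.9-fold lower (7.54 to 113).

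The adaptor and phosphatase genes of insulin and phosphoinositide signalling included IRS1, the insulin receptor substrate, which had 44.3 against 9.26 CPM and was 4.79-fold lower (3.84 to 6.02). INPP4B, a phosphoinositide phosphatase gene, had 11.5 against 2.03 CPM and was 5.68-fold lower (3.57 to 9.48). GRB10, an adaptor that inhibits insulin receptor signalling, lay the other way, with 33.0 against 71.7 CPM, 2.17-fold higher (1.92 to 2.46); it and HRH1 were picked after their values were seen. Of 48 genes of ERK feedback and early response 11 were listed, and the 3 FaDu-only genes were 1 lower and 2 higher. PHLDA1, a gene induced by ERK signalling, had 264 against 60.2 CPM and was 4.38-fold lower (4.02 to 4.79). DUSP8 and DUSP2, phosphatases of MAP kinases, had 2.61 against 7.14 CPM and 4.27 against 8.78 CPM, and were 2.73-fold (1.76 to 4.33) and 2.06-fold (1.44 to 2.97) higher. FAM20C, the kinase that phosphorylates secreted proteins in the Golgi, had 78.8 against 14.9 CPM and was 5.30-fold lower (4.46 to 6.33). APOBEC3B, a cytidine deaminase known for mutating the DNA of tumours, had 119 against 30.7 CPM and was 3.89-fold lower (3.44 to 4.40). Its close relatives in the APOBEC3 cluster could share reads with it. The other genes among the 20 largest lower differences were TSPAN5, UCA1, ADAMTS6, AADAC, FHOD3, CSF2, MMP13, SCHIP1, GLIPR1 and CDH2, between 4.03-fold and 9.81-fold lower.

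Promoters were read for the genes of largest difference because AP-1 sites are short and can be seen in the letters. Of the 40 genes with the largest differences, 25 had an entry in the RefSeq promoter table (build GRCh38.p14), 15 of the 20 lower ones and 10 of the 20 higher ones. The motif TGANTCA, the AP-1 site, stood in the 250 bases before at least 1 annotated start of 5 of these genes, all of them lower. The motif reads the same on both strands, and 6.57% of all 35116 promoter windows in that table hold it in the same stretch. That share counts windows, and a gene can have several, so the count of genes cannot be set against it. For each gene the first window with a match is shown, and whether FaDu cells use that start was not tested. Only 439 of the 571 genes (76.9%) had an entry, and the share was lower still for those 40 (62.5%), too few for a share of genes with the motif to be read in either set. The 5 stretches are shown 5′ to 3′ on the strand of the gene, in lower case, with the motif in capitals.
IL1RL1, chr2:102337007-102337256, plus strand: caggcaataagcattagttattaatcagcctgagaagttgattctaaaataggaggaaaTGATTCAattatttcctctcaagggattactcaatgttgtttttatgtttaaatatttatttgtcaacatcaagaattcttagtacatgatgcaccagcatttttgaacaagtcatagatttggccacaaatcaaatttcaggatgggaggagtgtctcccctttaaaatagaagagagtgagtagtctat
GPR176, chr15:39829277-39829526, minus strand: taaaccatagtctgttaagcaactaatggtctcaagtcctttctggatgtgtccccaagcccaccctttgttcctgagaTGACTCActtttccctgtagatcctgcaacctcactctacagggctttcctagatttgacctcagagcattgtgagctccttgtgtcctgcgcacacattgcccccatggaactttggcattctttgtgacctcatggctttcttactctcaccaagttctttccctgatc
SPHK1, chr17:76385028-76385277, plus strand: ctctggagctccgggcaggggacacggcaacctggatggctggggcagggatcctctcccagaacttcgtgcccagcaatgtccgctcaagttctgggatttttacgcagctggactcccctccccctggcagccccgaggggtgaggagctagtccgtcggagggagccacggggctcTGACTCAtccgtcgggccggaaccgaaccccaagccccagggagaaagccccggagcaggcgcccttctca
SCHIP1, chr3:159852904-159853153, plus strand: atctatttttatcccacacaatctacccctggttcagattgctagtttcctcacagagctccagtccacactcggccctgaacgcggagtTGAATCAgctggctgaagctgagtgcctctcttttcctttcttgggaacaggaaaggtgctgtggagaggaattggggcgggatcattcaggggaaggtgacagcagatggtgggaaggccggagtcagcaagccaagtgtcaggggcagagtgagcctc
CDH2, chr18:28036642-28036891, minus strand: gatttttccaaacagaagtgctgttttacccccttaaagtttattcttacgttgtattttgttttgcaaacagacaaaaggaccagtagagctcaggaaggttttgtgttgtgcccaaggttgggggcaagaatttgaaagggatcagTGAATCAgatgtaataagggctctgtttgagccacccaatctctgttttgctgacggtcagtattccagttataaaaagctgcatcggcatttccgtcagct
The annotated start lies at the 3′ end of each stretch shown. The first base of the motif lay 191 bases before that start in IL1RL1, 171 in GPR176, 71 in SPHK1, 160 in SCHIP1 and 102 in CDH2. GPR176 and SPHK1 hold TGACTCA, the usual AP-1 site, and the others hold TGATTCA or TGAATCA. A match is a description of the letters. Binding of FRA1 was not measured here. SCHIP1, which encodes a schwannomin-interacting protein, had 5.58 against 0.675 CPM and was 8.26-fold lower (3.78 to 21.4), but it overlaps the readthrough row IQCJ-SCHIP1, which was 2.0-fold lower (1.61 to 2.49), so its value is uncertain.

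Genes with the largest higher values included a glycosyltransferase, a calcium-binding protein and keratins. A4GALT, which makes the P blood group antigen Pk, had 2.70 CPM in the control and 20.1 CPM after FOSL1 siRNA, and was 7.43-fold higher (5.08 to 11.2). KCNV1, a modifier subunit of potassium channels, had 1.83 against 12.5 CPM and was 6.85-fold higher (4.30 to 11.4). PGM2L1, an enzyme that makes a bisphosphate of glucose, had 59 against 311 reads and was 5.84-fold higher (4.41 to 7.85). CXXC5, a CXXC zinc finger protein that restrains Wnt signalling, had 8.97 against 42.7 CPM and was 4.76-fold higher (3.84 to 5.96). All of these had over 100 reads after FOSL1 siRNA and from 21 to 103 reads in the control. NR4A2, an orphan nuclear receptor gene, had 2.79 against 14.5 CPM and was 5.19-fold higher (3.52 to 7.86), and its relative NR4A1, picked after its value was seen, had 18 against 36.8 CPM and was 2.04-fold higher (1.72 to 2.43). IRF2BPL, a nuclear ring finger protein gene, had 76.0 against 326 CPM and was 4.29-fold higher (3.99 to 4.63), whereas its paralogue IRF2BP2, also picked after its value was seen, had 90.3 against 29.6 CPM and was 3.05-fold lower (2.68 to 3.47). L1CAM, a neural cell adhesion molecule, had 3.31 against 15.3 CPM and was 4.63-fold higher (3.23 to 6.79). RNA5-8S5, 4.85-fold higher (3.58 to 6.66), is a ribosomal RNA of a repeated locus, and its value is uncertain for that reason.

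**Figure D3:**
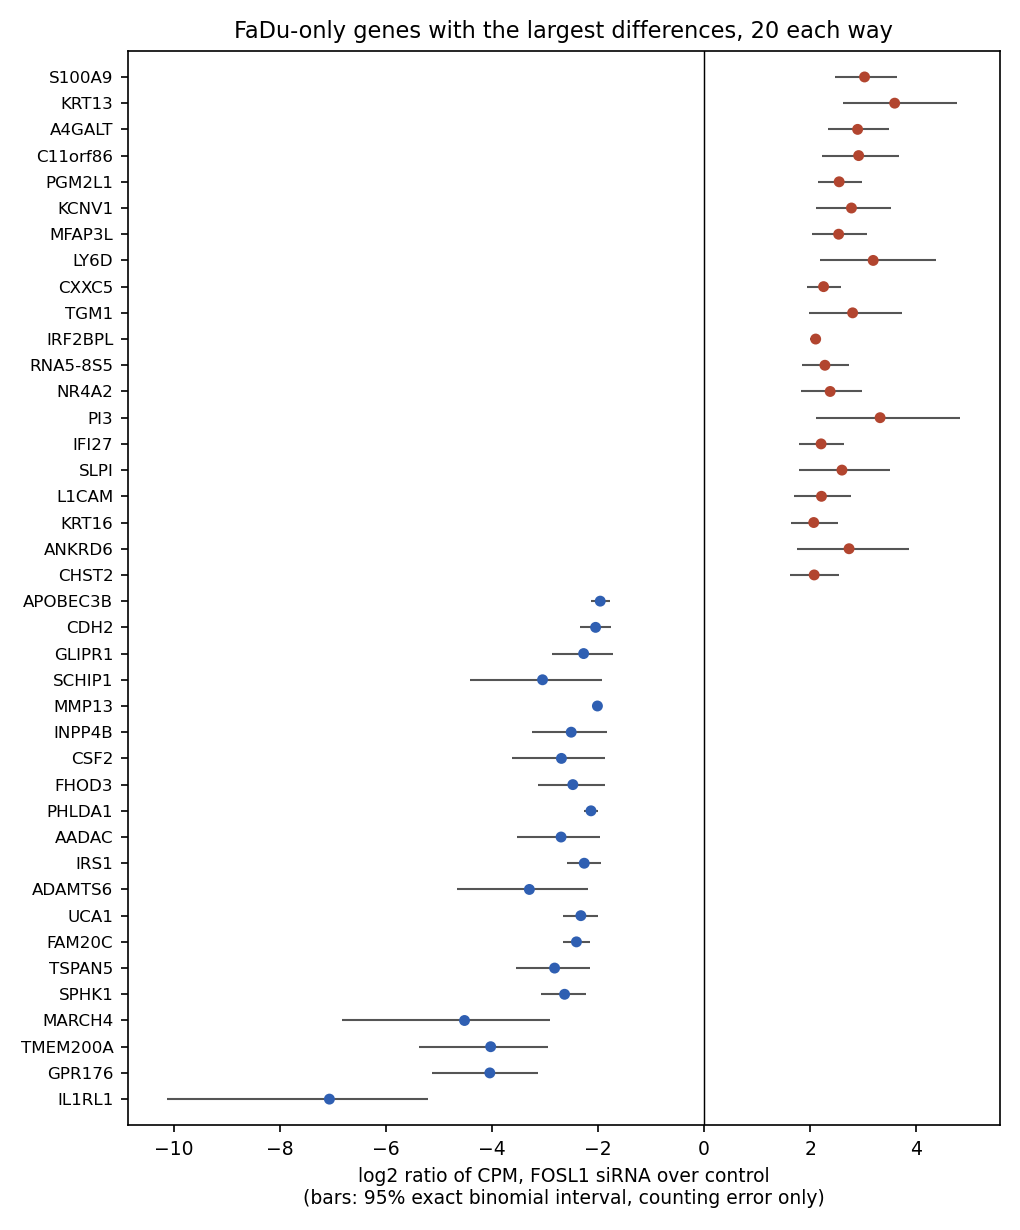
Log2 ratio of CPM, FOSL1 siRNA over control, for the 20 FaDu-only genes with the most positive (red) and the 20 with the most negative (blue) difference on log2(CPM + 1), with 95% exact binomial intervals that cover counting error only. IL1RL1 lies farthest from 0 and, with 2 reads after FOSL1 siRNA, has the widest interval.

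Keratins and other genes of the upper squamous layers were mostly higher, beside 45.2% of all 571 genes. Of 35 keratin genes 6 were listed in FaDu, and 5 of these were FaDu-only genes, 4 higher and 1 lower. KRT13 and KRT4, keratins of mucosal stratified epithelium, had 0.784 against 9.45 CPM and 1.57 against 6.37 CPM, 12.1-fold (6.10 to 27.2) and 4.06-fold (2.38 to 7.27) higher. KRT16 and KRT17, keratins of stressed and hyperproliferative epithelium, had 4.79 against 20.1 CPM and 794 against 2609 CPM, and were 4.19-fold (3.10 to 5.74) and 3.29-fold (3.21 to 3.37) higher. Both have near-identical pseudogenes, so their values are uncertain. KRT80 had 164 against 83.3 CPM, 1.97-fold lower (1.82 to 2.14), and its sign turned when the median of listed genes was set to 0. By construction that shift turns the lower genes of smallest fold and no higher gene, here and for the genes named below. A turned sign therefore restates a small fold and is no separate check.

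Of 95 genes of the cornified envelope and upper layers 15 were listed, and the 6 FaDu-only genes among them were all higher. TGM1, the transglutaminase that crosslinks the envelope, had 1.22 against 8.49 CPM and was 6.96-fold higher (3.94 to 13.3). LY6D, a surface protein of stratified epithelium, had 0.784 against 7.14 CPM and was 9.10-fold higher (4.55 to 20.7). The neighbouring protease inhibitor genes PI3 and SLPI had 0.523 against 5.21 CPM and 1.31 against 7.91 CPM, 9.97-fold (4.29 to 28.3) and 6.05-fold (3.46 to 11.3) higher. These 4 genes had 6 to 15 reads in the control, so that their intervals are wide. They met the minimum of 5 CPM only through the library with FOSL1 siRNA, where they were higher. Their mean CPM over both libraries was 2.87 to 4.85, under that minimum, so the count of 6 higher genes depends on that rule. ELF3, an epithelial ETS factor, and TRIM29, a TRIM family protein, were better covered: ELF3 had 95.8 against 292 CPM, 3.04-fold higher (2.84 to 3.27), and TRIM29 had 85.2 against 194 CPM, 2.28-fold higher (2.11 to 2.47). Of the 3 genes in that list that both lines list at 5 CPM or more, 1 was higher and 2 were lower. All 3 FaDu-only genes of the S100 family of calcium-binding proteins were higher: S100A9 had 2.53 against 20.5 CPM and was 8.13-fold higher (5.50 to 12.4), S100A11 was 2.59-fold higher (2.44 to 2.75) and S100A6 was 2.38-fold higher (2.21 to 2.56). PKP1, a desmosome plaque protein of the upper layers, had 21.2 against 69.8 CPM and was 3.30-fold higher (2.85 to 3.83).

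In a list of squamous and epithelial transcription factors the FaDu-only genes split 6 higher to 1 lower, with 14 of the 37 in the list being listed in FaDu. ZNF750, a regulator of terminal epidermal differentiation, had 1.22 against 6.75 CPM and was 5.54-fold higher (3.09 to 10.6). KLF4, which acts in the barrier programme, had 38.2 against 90.6 CPM and was 2.37-fold higher (2.12 to 2.66). ID1, an inhibitor of basic helix-loop-helix factors and a target of BMP signalling, had 105 against 362 CPM and was 3.44-fold higher (3.23 to 3.68). CEBPB, a factor of keratinocyte differentiation, had 90.4 against 192 CPM and was 2.13-fold higher (1.97 to 2.30). HES1, 1.93-fold higher (1.66 to 2.24), and TRIM29 were the other higher genes, and both are counted in another list too. KLF6 was the lower gene, with 48.2 against 14.8 CPM, 3.26-fold lower (2.72 to 3.93). Of 7 genes in the list that both lines list at 5 CPM or more, 5 were higher and 2 were lower.

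Interferon-stimulated genes were the list with the most FaDu-only members in 1 direction. Of 64 such genes 11 were listed in FaDu, all higher, and 10 of the 11 were FaDu-only genes. The list was written with earlier results of these data known, so this count depends on which genes it holds. TRIM25, a relative of TRIM21 that the list leaves out, was 1.89-fold lower (1.73 to 2.07). IFI27 had 5.31 against 24.5 CPM and was 4.61-fold higher (3.47 to 6.20), and XAF1, which antagonises an apoptosis inhibitor, had 1.48 against 6.17 CPM and was 4.17-fold higher (2.41 to 7.59). IFIT1, which binds foreign RNA caps, had 58.1 against 180 CPM and was 3.09-fold higher (2.83 to 3.38). The antiviral genes IFI44L, MX1, OAS1 and IFITM1 were between 2.15-fold and 2.84-fold higher. TNFSF10, the death ligand TRAIL, was 2.37-fold higher (1.97 to 2.86), TRIM21, an antibody receptor of the cytosol, was 2.0-fold higher (1.61 to 2.50), and HELZ2 was 2.03-fold higher (1.81 to 2.29). The authors' deposited table gave an FDR under 0.05 to IFI27, XAF1 and IFIT1 of the 10. CASP1, the interleukin-1 converting enzyme, was 2.65-fold higher (2.07 to 3.43), while MAVS, an adaptor for RNA sensors, was 2.28-fold lower (2.02 to 2.59). The complement genes CFI and CFB, which like MAVS were picked after their values were seen, were 3.46-fold (2.55 to 4.75) and 3.27-fold (1.99 to 5.57) higher.

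**Figure D4:**
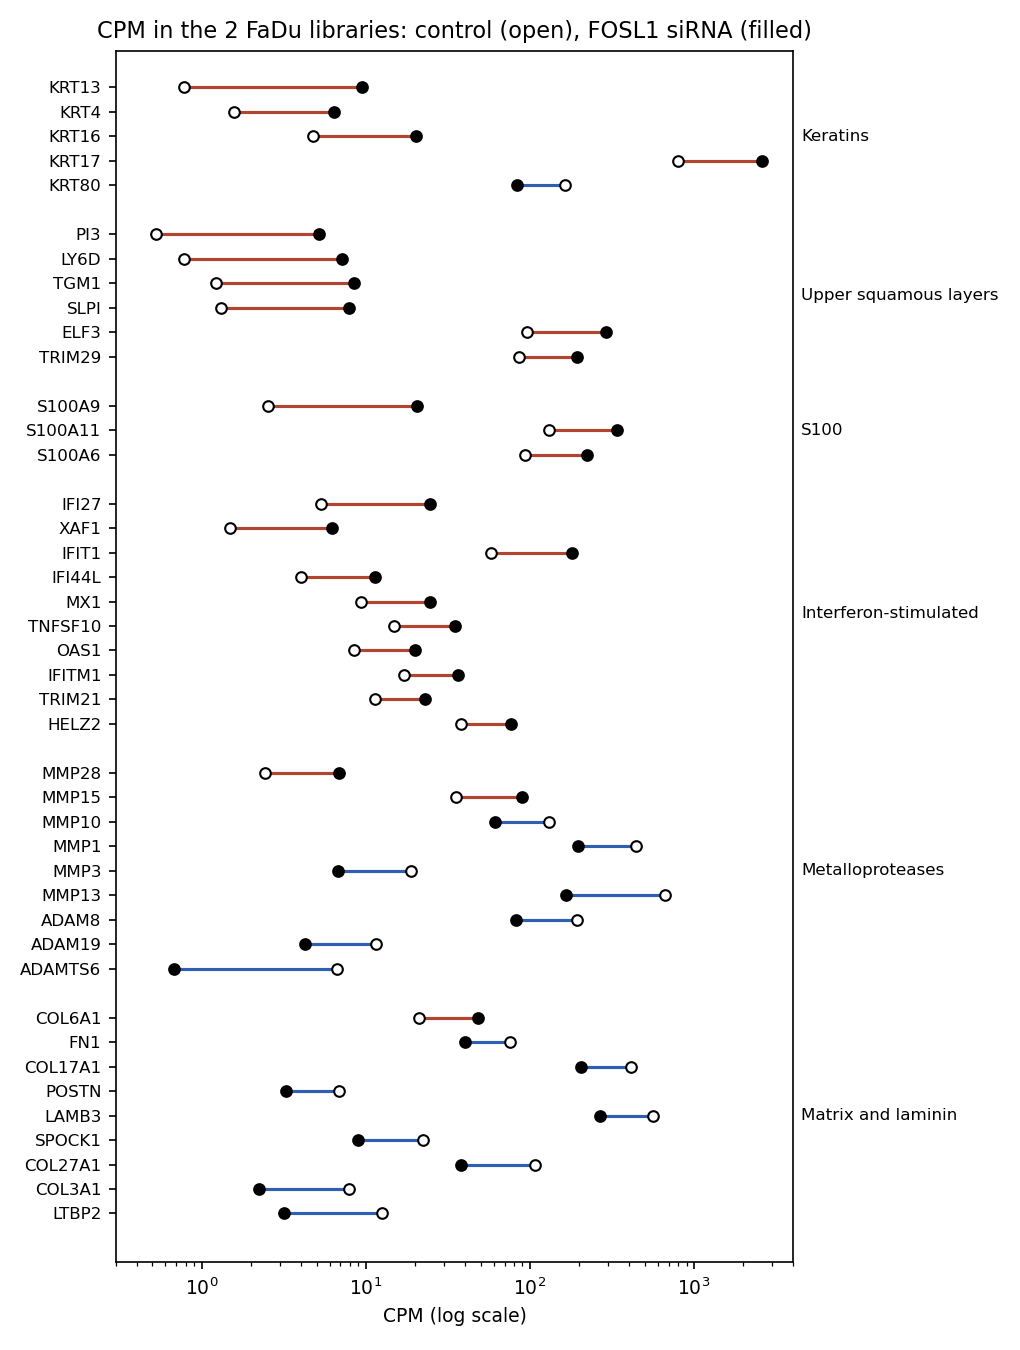
CPM (x axis, log scale) of FaDu-only genes in 6 groups, with the control library as an open point and the library with FOSL1 siRNA as a filled point; red lines join genes that were higher after FOSL1 siRNA and blue lines those that were lower. Each point is 1 library, and all 10 interferon-stimulated genes have their filled point to the right, whereas 8 of the 9 matrix genes drawn have it to the left.

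In the protease list and the matrix list most FaDu-only genes were lower, as were 54.8% of all 571. Of 95 metalloproteases and other proteases, with some of their inhibitors, 23 were listed, and the 12 FaDu-only genes were 4 higher and 8 lower. For so few genes that split is near the share over all 571. The protease inhibitor genes PI3 and SLPI, described above, are outside this list and were higher. MMP13 and MMP1, collagenases, had 666 against 165 CPM and 444 against 196 CPM, 4.03-fold (3.82 to 4.25) and 2.26-fold (2.15 to 2.38) lower. MMP3 and MMP10, stromelysins from the same gene cluster, had 18.7 against 6.75 CPM and 130 against 61.5 CPM, 2.77-fold (2.11 to 3.69) and 2.11-fold (1.92 to 2.32) lower. The ADAM proteases ADAM8 and ADAM19 were 2.34-fold (2.16 to 2.53) and 2.71-fold (1.91 to 3.9) lower, and ADAMTS6, with 6.62 against 0.675 CPM, was 9.81-fold lower (4.53 to 25.2). The protease inhibitor gene SERPINE2 was 2.08-fold lower (1.69 to 2.58). The higher genes were MMP15, a membrane-bound metalloprotease, 2.53-fold (2.25 to 2.85), MMP28, which is expressed in keratinocytes, 2.81-fold (1.79 to 4.52), TMPRSS4, a membrane serine protease, 4.48-fold (2.72 to 7.73), and CTSL, the lysosomal cathepsin L, 2.45-fold (2.23 to 2.69).

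Of 105 collagen and matrix genes 22 were listed, and the 10 FaDu-only genes were 1 higher and 9 lower, of which FN1 and COL17A1 turned sign when the median of listed genes was set to 0. LAMB3, a laminin chain of the epithelial basement membrane, had 563 against 266 CPM and was 2.11-fold lower (2.02 to 2.21). COL17A1, the hemidesmosomal collagen, had 410 against 205 CPM and was 2.0-fold lower (1.90 to 2.11), and COL27A1, a fibrillar collagen, was 2.83-fold lower (2.53 to 3.18). LTBP2, a protein of elastic microfibrils, had 12.5 against 3.18 CPM and was 3.91-fold lower (2.66 to 5.90). COL3A1 had 7.84 against 2.22 CPM and POSTN 6.88 against 3.28 CPM, and these are also the fibroblast markers that are listed, so the part of other cells in them was not tested. COL6A1 was the higher gene, with 21.0 against 48.1 CPM, 2.29-fold (1.96 to 2.68).

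Adhesion genes among the 571 were lower for integrins and mixed for cadherins and junctions. ITGB2, the beta chain of leukocyte integrins, had 31.9 against 9.07 CPM and was 3.52-fold lower (2.80 to 4.46), while ITGA2, a collagen receptor chain, at 1.98-fold lower (1.80 to 2.18), and DST, a hemidesmosome linker, at 1.90-fold lower (1.78 to 2.03), turned sign when the median of listed genes was set to 0. CDH2, the N-cadherin gene, had 48.2 against 11.7 CPM and was 4.13-fold lower (3.38 to 5.07). CDH11, a mesenchymal cadherin, had 13.8 against 3.38 CPM and was 4.08-fold lower (2.81 to 6.06). All 4 FaDu-only genes among YAP/TAZ targets and partners were lower, AMOTL2 by 2.78-fold (2.45 to 3.15), NUAK2 by 2.04-fold (1.64 to 2.54), the DNA-binding partner TEAD1 by 2.03-fold (1.82 to 2.26) and MYOF by 1.92-fold (1.84 to 2.0), and MYOF turned sign with centring. A further 8 genes of that list at 5 CPM or more were listed in both lines, and all of them were lower.

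Of 24 AP-1 and ATF subunit genes 6 were listed in FaDu, 1 higher and 5 lower. FOSL1, the siRNA target, is itself an AP-1 subunit gene that both lines list, and its lower value is no separate result. The 3 FaDu-only genes were lower, and the higher gene lay under 5 CPM. JUN, the main partner of FOS proteins, had 215 against 94.3 CPM and was 2.28-fold lower (2.11 to 2.45). ATF3, a stress-induced relative, had 65.9 against 24.0 CPM and was 2.74-fold lower (2.37 to 3.18), and FOSB had 7.75 against 3.38 CPM and was 2.30-fold lower (1.54 to 3.50). None of these had an FDR under 0.05 in the authors' deposited table. Of 51 genes of the ATF4 and unfolded protein responses 6 were listed, and the 4 FaDu-only genes were 3 lower and 1 higher. The lower ones were DDIT3, which encodes CHOP, 3.26-fold lower (2.46 to 4.37), HERPUD1, 2.13-fold lower (1.94 to 2.34), and XBP1, 2.04-fold lower (1.84 to 2.27). The higher one was CEBPB, described above. PPP1R15A, a phosphatase subunit of the stress response that is outside the list and was picked after its value was seen, had 64.1 against 16.3 CPM and was 3.93-fold lower (3.32 to 4.68).

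Ligand genes were divided. Of 10 FaDu-only growth factor and ephrin genes, 6 were higher and 4 were lower. EREG, the EGF family ligand epiregulin, had 577 against 1115 CPM and was 1.93-fold higher (1.87 to 1.99). IGFL1, an insulin-like growth factor relative of skin, had 41.2 against 145 CPM and was 3.51-fold higher (3.16 to 3.9), and NOV, a matricellular protein of the CCN family, had 3.14 against 13.8 CPM and was 4.40-fold higher (3.03 to 6.53). NRG4, FGF19 and PDGFD were between 2.65-fold and 3.69-fold higher. The lower ligands were PDGFB, 2.89-fold (2.45 to 3.41), the lymphatic growth factor VEGFC, 2.42-fold (2.10 to 2.80), and the ephrins EFNB2, 2.78-fold (2.31 to 3.36), and EFNA1, 2.33-fold (1.90 to 2.87). PDGFB and PDGFD, which act on the same receptor family, thus had opposite signs. Among cytokines CSF2, the granulocyte-macrophage colony-stimulating factor gene, had 8.71 against 1.35 CPM and was 6.45-fold lower (3.67 to 12.2), whereas IL18 was 2.45-fold higher (2.12 to 2.83), CCL5 2.41-fold higher (1.52 to 3.92) and the prostaglandin synthase gene PTGES 2.09-fold higher (1.83 to 2.39). The receptor tyrosine kinase genes MET, the receptor of hepatocyte growth factor, and ROR1, a Wnt receptor, were 2.07-fold (1.97 to 2.18) and 3.67-fold (2.06 to 6.96) lower. TNFAIP3, the ubiquitin-editing inhibitor of NF-kB, had 231 against 97.4 CPM and was 2.37-fold lower (2.20 to 2.55).

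In the Notch, Wnt, TGF-beta and BMP lists most FaDu-only genes were higher, beside 45.2% of all 571. The few genes in these lists that both lines list at 5 CPM or more were mostly lower. That is also so for all 562 such genes, of which 34.0% were higher. Of 35 Notch genes 4 were listed, 3 of them FaDu-only genes, all higher, and 1 shared and lower. NRARP, a feedback inhibitor of Notch, had 95.8 against 289 CPM and was 3.02-fold higher (2.82 to 3.24), NOTCH3 was 2.04-fold higher (1.66 to 2.52) and HES1, a Notch target, was 1.93-fold higher (1.66 to 2.24). Of 58 Wnt genes 13 were listed, and the FaDu-only genes were 5 higher and 1 lower, beside 1 higher and 3 lower among the shared ones. The higher ones were the receptors FZD4, 3.07-fold (2.38 to 3.99), and FZD1, 2.23-fold (1.72 to 2.90), the ligand WNT5A, 2.38-fold (1.56 to 3.68), KREMEN1, a DKK receptor, 2.54-fold (2.16 to 3.01), and LGR6, an R-spondin receptor, 2.14-fold (1.48 to 3.14). DKK3 was 2.11-fold lower (1.57 to 2.86). Of 43 TGF-beta and BMP genes 8 were listed, with 2 FaDu-only genes, both higher, beside 2 higher and 3 lower shared ones. TGFB3 was 3.57-fold higher (2.07 to 6.43) and the BMP receptor gene BMPR1A 2.01-fold higher (1.80 to 2.24). Of 76 genes of xenobiotic and retinoid metabolism 8 were listed, and the 3 FaDu-only ones were higher, ALDH3A1 at 2.64-fold (2.35 to 2.97), CRABP2 at 2.61-fold (1.61 to 4.35) and LRAT at 2.21-fold (1.45 to 3.45).

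No gene of 56 G2/M genes was listed in FaDu. Of 72 G1/S and replication genes 9 were listed, 3 of them FaDu-only genes: CDC25A, a phosphatase that activates cyclin-dependent kinases, was 1.91-fold higher (1.70 to 2.14), CDKN2D, an inhibitor of those kinases, was 2.18-fold higher (1.72 to 2.78), and GINS4, a subunit of the replicative helicase, was 2.53-fold lower (2.14 to 3.01). Of 38 p53 targets 8 were listed, and of the 3 FaDu-only ones SESN3 and TP53I11 were higher, 2.56-fold (2.14 to 3.08) and 2.12-fold (1.53 to 2.96), and BBC3, which encodes the apoptosis inducer PUMA, was 2.12-fold lower (1.38 to 3.31). Of 68 histone genes 8 were listed, all higher, and the FaDu-only ones were HIST1H2BH and HIST1H4J, 2.79-fold (2.19 to 3.58) and 3.32-fold (2.22 to 5.09) higher, and members of such families can share reads.

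**Figure D5:**
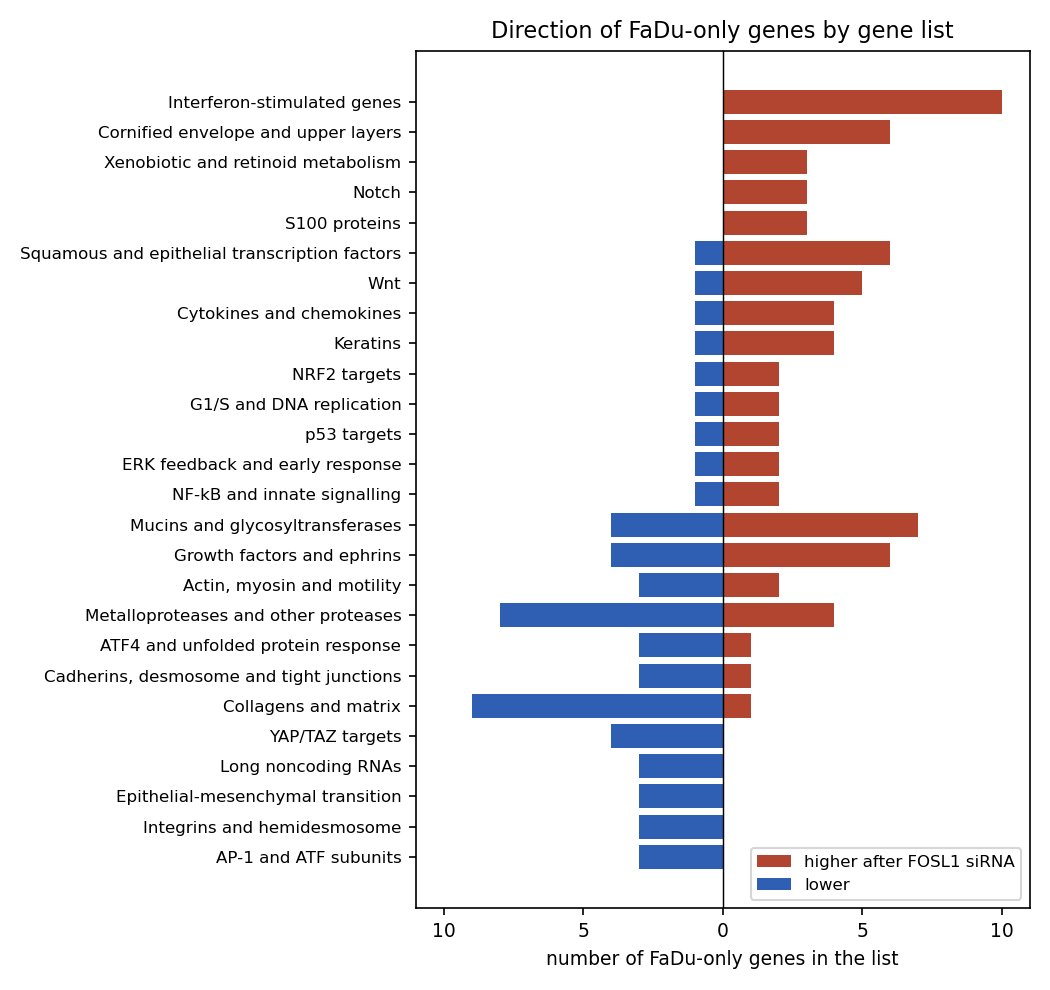
Number of FaDu-only genes that were higher (red, to the right) and lower (blue, to the left) after FOSL1 siRNA in each gene list made by name that holds 3 or more of them; lists made by symbol prefix are not drawn. Interferon-stimulated genes stood at 10 to 0 and collagens and matrix at 1 to 9, while 45.2% of all 571 genes were higher. A gene can be in several lists, and the lower side of 6 of the lists drawn loses 1 or 2 genes when the median of listed genes is set to 0.

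Of the 11 FaDu-only genes among 107 mucins and glycosyltransferases, 7 were higher and 4 were lower. For so few genes that is near the share over all 571, of which 45.2% were higher. Beside A4GALT the higher ones included ABO, the transferase of the ABO blood groups, which had 8.02 against 22.5 CPM and was 2.80-fold higher (2.19 to 3.61). CHST2, a sulfotransferase, was 4.21-fold higher (3.08 to 5.85). The sialyltransferase genes split: ST3GAL5, which makes the ganglioside GM3, had 1.39 against 7.43 CPM and was 5.33-fold higher (3.08 to 9.78), ST3GAL4 was 2.01-fold higher (1.72 to 2.35), and ST3GAL3 was 2.92-fold lower (1.77 to 5.02). GALNT6 was 3.63-fold lower (2.68 to 4.98) and its relative GALNT10 1.92-fold higher (1.69 to 2.19). FUT8, the core fucosyltransferase, was 2.27-fold lower (2.02 to 2.56). None of the genes of that list was among those that both lines list at 5 CPM or more.

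Named by type, 12 solute carrier genes were divided 6 to 6, with 3 of the lower ones turning sign under centring. SLC16A1, the lactate transporter MCT1, had 390 against 184 CPM and was 2.13-fold lower (2.02 to 2.24). Of 10 zinc finger genes of the ZNF type 7 were higher, ZNF750 and ZNF467 most, the latter 5.04-fold (3.08 to 8.63). Over all 571 genes 45.2% were higher. Of 50 well-known long noncoding RNAs 8 were listed, and the 3 FaDu-only ones were lower: UCA1, first described in urothelial carcinoma, had 46.4 against 9.26 CPM and was 5.0-fold lower (4.02 to 6.29), CCAT1 had 15.5 against 3.76 CPM and was 4.12-fold lower (2.90 to 5.99), and MIR22HG, the host gene of a microRNA, was 2.53-fold lower (2.03 to 3.17). Of 6 FaDu-only genes with a LINC or LOC symbol 5 were lower, LINC00472 most at 4.08-fold (2.63 to 6.57), and LINC01003 was 2.12-fold higher (1.53 to 2.96).

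The FaDu-only genes with the most reads had narrow intervals, with ratios from 1.92-fold for MYOF to 4.03-fold for MMP13. Beside KRT17, EREG, MMP13, LAMB3 and MYOF they were AHNAK, a large scaffold protein at 882 against 329 CPM, 2.68-fold lower (2.58 to 2.79), PIM3, a serine/threonine kinase at 520 against 1239 CPM, 2.38-fold higher (2.31 to 2.46), CAV2, a caveolin at 662 against 325 CPM, 2.03-fold lower (1.95 to 2.12), EIF2S3, a translation initiation factor subunit, 2.24-fold lower (2.15 to 2.34), and EFHD2, 1.93-fold lower (1.85 to 2.01), the last turning sign with centring as MYOF did. In the authors' deposited table only KRT17 and MMP13 of these 10 had an FDR under 0.05.

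Some FaDu-only genes lie beside each other in the genome. By gene order in RefSeq, 541 protein-coding genes were placed, and 108 pairs of consecutive ones had at most 5 other protein-coding genes between them. In 71 of these pairs (65.7%) both genes had the same direction, beside 50.4% over all pairs that the 541 genes could form. With at most 2 genes between, the share was 39 of 63 pairs (61.9%), and with at most 10 it was 99 of 172 (57.6%). The longest run held MMP10, MMP1, MMP3, MMP13 and DYNC2H1, all lower, followed by PDGFD and CASP1, both higher. Another run was ZBED5, DKK3, MICAL2 and TEAD1, all lower, and the keratin genes KRT13, KRT16 and KRT17 formed a run of 3 higher genes. PI3 and SLPI, S100A9 and S100A6, and GLIPR1 and PHLDA1 were further pairs in 1 direction, and CAV2 and MET were both lower. Neighbouring members of a gene family can share reads, and this comparison was chosen after the data were seen. Overlapping and copied genes were not left out of the pairs. IQCJ-SCHIP1 with SCHIP1, and GOLGA8A with GOLGA8B, are counted among those of the same direction.

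At the CPM minimum, the genes just inside were RGL1, CNRIP1, PRX, LOC100133091 and LOC90246, with 5.02 to 5.14 CPM in their higher library. Those just outside were SLC2A3, MMP2, SENCR, SH3PXD2A-AS1 and ANKRD36B, with 4.79 to 4.92 CPM, of which SLC2A3, a glucose transporter gene, was 6.27-fold higher (3.06 to 14.5) and MMP2, a gelatinase gene, was 2.20-fold lower (1.33 to 3.74).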

How the data were processed

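RNA-seq libraries of FaDu and SCC1 cells with control or FOSL1 siRNA were compared, 1 library per group. Library preparation used a KAPA kit, per the labels' protocols. TopHat, Cufflinks and hg18 are named in the submitters' processing notes without version or role, and how reads were counted, stranded and normalized is not given in the sources used here. For each line the authors deposited a list of genes past their own comparison, with 2 CPM columns and, per the file headers, a p-value and an FDR. The deposited score is the authors' signed linear fold of FOSL1 siRNA over control, per the file headers and the values; each deposited p-value was under 0.05. The FDR to p ratio gives 13796 genes tested and a last rank of 1639, so 94 ranked FaDu genes were not analysed here.

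Each deposited FaDu CPM value was, to within 0.01 of a read, a whole number of reads times the value of 1 read (0.0871 CPM in the control, 0.0965 CPM with FOSL1 siRNA), which gave reads per gene. Folds are ratios of CPM with 95% exact binomial intervals; against 0 reads a floor of 3 reads was used. All members passed 1.5-fold. The recovery and intervals were tested on simulated data. On the recovered reads, the likelihood ratio test of edgeR with the dispersion set to 0.05 gave p-values within 1% of the authors' deposited ones for 1545 of 1545 genes. Gene types, gene order and promoters came from RefSeq GRCh38.p14 by symbol, and 1 FaDu symbol was a date.

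The members, 43 gene lists by name, 8 by symbol prefix and the naming rule were chosen with earlier results of these data known. The rule took FOSL1; the 20 largest differences each way on log2(CPM + 1), leaving out small RNAs, readthrough rows and rows of several symbols; the 10 with the highest mean CPM and 10 with the lowest FDR; rows at 0 reads; up to 8 per list; 5 on each side of the CPM minimum; and preset names. Further members of lists with more than 8, and readthrough rows, were added after their values were seen. A few genes within the rule are left out of the text. Of 8 motifs planned, TGANTCA alone was searched, because too few members had a promoter entry. Alternatives were other CPM minimums, folds, p-value limits, pseudocounts, symbol matching and centring, and, chosen after seeing the data, edgeR dispersions, leaving out gene copies, and other distances between neighbours. Computing used Python 3.11.15, numpy 2.4.6, pandas 2.3.3, SciPy 1.17.1, matplotlib 3.10.9, R 4.3.3 and edgeR 4.0.16.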

Additional observations from a re-analysis of the deposited data

How the results depend on the processing

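No paired analysis was possible because each group had 1 library, and leaving out a replicate was not possible for the same reason, so every value rests on counting error alone. The list grew from 571 to 867 genes with a CPM minimum of 1 or with none. It held 491 genes when the mean of both CPM values had to reach 5. The count of higher genes, 258, became 420 at a minimum of 1 CPM and 137 at 20 CPM; that of lower genes, 313, became 194 at 20 CPM. With a fold of 4 the counts were 33 higher and 30 lower, with the authors' deposited p-value under 0.01 they were 117 and 118, and with their FDR under 0.05 they were 56 and 51. Centring on the median of listed genes left 64 lower genes past 1.5-fold and, among genes in any list, 19 past it in place of 67; it moved the log2 ratio of FOSL1 from -4.39 to -3.37. It turned the sign of COL17A1 (0.015), DST (0.088), EFHD2 (0.067), FBXL18 (0.066), FN1 (0.090), ITGA2 (0.031), KRT80 (0.033), MRPS7 (0.030), MYOF (0.074) and TRIM25 (0.096), all on the log2 scale and all close to 0. By sign alone 68 of the 313 lower genes turned, by construction those of smallest fold, so a turned sign is no check beyond the fold. By edgeR's likelihood ratio test, with the dispersion assumed and not estimated, 106 of the 571 genes had an FDR under 0.05 at a dispersion of 0.05, 21 at 0.1, 3 at 0.2 and 0 at 0.4, where 19 had an unadjusted p under 0.05. Matching older symbols left 570 genes, and leaving out 32 rows with near-identical copies, pseudogenes or readthrough models left 539, of which 241 were higher and 298 lower. Genes with few reads are listed only at larger folds, so depth limits what the list can hold.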
